A study of Xenopus tropicalis with 52 samples.

Results

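PolyA+ RNA of *Xenopus tropicalis* was compared between embryos of 2 females at matched developmental age, in a window called gastrula here. The authors describe their sampling as ending at early gastrulation, and it ran past this window in both series. Part or most of the window may therefore precede gastrulation. The comparison used 9 of the 52 RNA-seq libraries of the study. Series 2 gave 5 of them, at 5.5, 6.0, 6.5 (2 libraries) and 7.0 hpf (hours post fertilisation), and Series 3 gave 4, at 7.0, 7.5, 8.0 and 8.5 hpf. The libraries were paired in that order, with Series 3 times scaled by 20/25 to allow for its slower mean cell cycle, which places them at 5.6, 6.0, 6.4 and 6.8 scaled hours. All samples were whole embryos, cultured at one temperature and pooled from a single fertilisation per series, and the labels give no strain, allele or treatment for either series. Series 2 embryos were collected in larger pools, their RNA was made into libraries with an Illumina polyA+ kit and sequenced on an Illumina GA-IIx. Series 3 embryos came from another frog colony and were collected in smaller pools, and their polyA+ RNA was bead-selected, made into ScriptSeq v2 libraries and sequenced on an Illumina HiSeq with longer reads. Clutch is therefore confounded with colony, pool size, kit and sequencer, and for none of the differences given here can these be told apart. Each series is 1 fertilisation, so the time points stand in for replicates and p-values measure the spread between libraries, not between females.

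A frog egg carries a large store of maternal RNA, and the embryo's own genome is nearly silent in the first cleavages, with transcription building up from cleavage stages through the midblastula. Over this time and after, signals from the vegetal cells (Nodal ligands) and from the dorsal side (maternal Wnt/β-catenin) switch on the genes that lay down mesoderm, endoderm and the Spemann organizer, while BMP and zygotic Wnt ligands pattern the ventral side. Gastrula RNA is thus a mixture of remaining maternal transcripts and new zygotic ones. Many maternal transcripts have short polyA tails that are lengthened or removed on a schedule, so a polyA+ library does not hold all the RNA in the embryo.

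Total counts were 26101542 to 33907947 in the Series 2 libraries and 4539916 to 7378060 in the Series 3 libraries. In the same order, 13160 to 13652 and 9799 to 10539 genes had at least 10 counts. Ribosomal entries took 0.228% to 1.07% of counts and mitochondrial entries at most 0.0264%, with overlapping ranges in both series. The remaining entries that name no gene took 0.0195% to 0.0329% in Series 2 and 0.262% to 0.384% in Series 3. The last shares are of unlike sets, since the table with Series 2 held 3 entries without a gene in all and that of Series 3 held 7. No library stood apart from its series in any of the 3 shares, in total counts or in genes counted. Levels are given as TMM-scaled reads, that is counts per 25000000 after TMM scaling, which corrects each library for its composition (trimmed mean of M values). A TMM-scaled value is 0.798 to 0.837 times the deposited normalised value in Series 2 and 1.17 to 1.36 times in Series 3. A count of 0 allows up to 3 counts, on average 2.00 TMM-scaled reads in Series 2 and 17.8 in Series 3, so a low gene is far less well measured in Series 3. These limits allow for counting error alone, since reads copied by PCR are not independent. Library values are always listed in the order 5.5, 6.0, 6.5 (first and second library) and 7.0 hpf for Series 2 and 7.0, 7.5, 8.0 and 8.5 hpf for Series 3.

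More than 1 in 4 genes were higher and more than 1 in 3 lower in Series 3 than in Series 2 at the same scaled age. Of 19372 genes in both tables, 12894 reached 10 counts in at least 4 of 8 columns and were tested with edgeR's quasi-likelihood test, with the stage pair as a block. At a Benjamini-Hochberg adjusted p under 0.05, 3562 genes (27.6%) were higher and 4948 (38.4%) lower in Series 3, 66.0% in all. A difference of at least 2-fold was added to this threshold for 2374 (18.4%) higher and 3828 (29.7%) lower genes. The balance between directions rests on the scaling. With library totals in place of TMM, 2049 genes (15.9%) were higher and 6968 (54.0%) lower, because the median gene moved from -0.26 to -0.87 on the log2 scale, a shift of 0.609. Of the tested genes, 1873 passed the count filter through Series 2 alone, of which 1258 were among the lower calls, and 17 passed through Series 3 alone, all of which were higher calls. Among the 8765 genes with at least 10 counts in all 9 libraries, 3295 (37.6%) were higher and 2832 (32.3%) lower. Where a list below is well counted in Series 3, these shares are a nearer comparison than those over all genes.

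**Figure D1:**
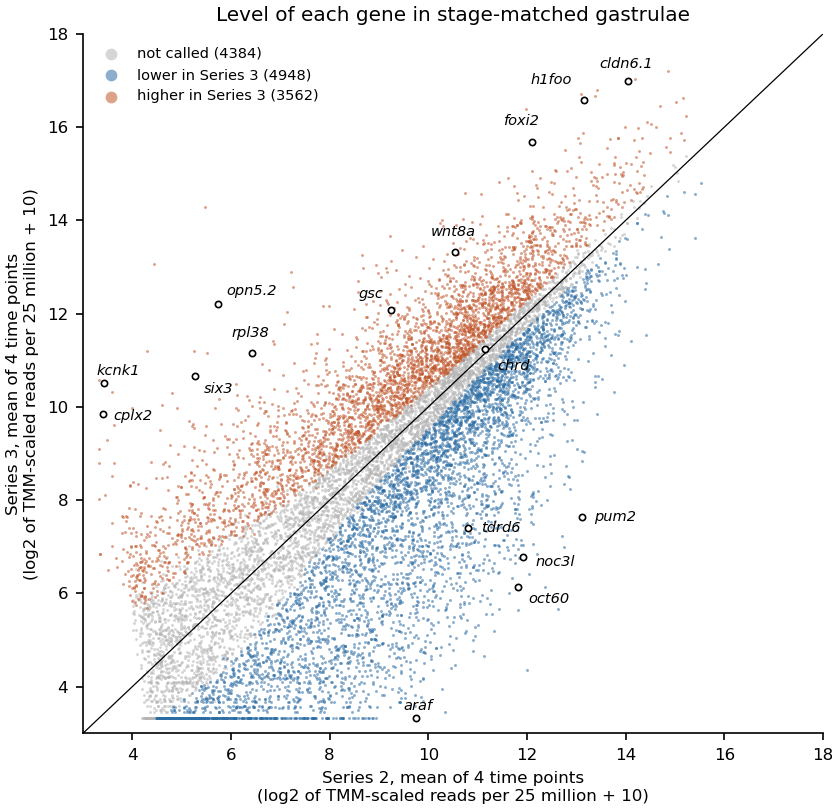
Mean level of each of 12894 tested genes in Series 2 (x axis) and Series 3 (y axis), as log2 of TMM-scaled reads plus 10, with genes higher (orange, 3562), lower (blue, 4948) or not called (grey, 4384) in Series 3, and selected genes circled; the diagonal marks equal levels. Genes far below the diagonal reach the floor of the plot, where 491 genes had no count in any Series 3 library, while *kcnk1* and *cplx2* lie at the left edge, near 0 in Series 2.

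The replicate libraries of Series 2 at 6.5 hpf give the only replicate error in the window. Their values differed by a median of 0.218 on the log2 scale (after adding 10 reads), and 3.09% of genes differed by 2-fold or more. Between paired libraries of the 2 series, the median difference was 0.981 to 1.21 and 49.4% to 57.1% of genes differed by 2-fold or more. For the pair at 6.5 and 8.0 hpf the difference was larger than that between the replicates for 88.1% of genes. Both replicates are deep libraries, with 0.717 TMM-scaled reads per count at 6.5 hpf, against 7.21 in Series 3 at 8.0 hpf. Their spread leaves out the larger counting error of the Series 3 libraries, which is part of the differences between pairs. Across genes, log2 levels correlated with r = 0.985 between the replicates, 0.985 to 0.987 between neighbouring Series 2 points, 0.952 to 0.963 between neighbouring Series 3 points and 0.754 to 0.815 between pairs. The sign of the difference was the same in all 4 pairs for 74.0% of genes.

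Of 10 genes that mark the stage, 9 were higher in Series 3, where 27.6% of all genes were, and 8 rose over the window in both series, as did 396 of 12894 genes tested. Slopes were called different for none of them, but for only 0.31% of all genes, so this says little about their likeness. *gsc* (Xetrov72014590), goosecoid, a homeobox repressor of the organizer, had 272, 427, 908, 679 and 911 TMM-scaled reads in Series 2 and 1838, 3606, 5193 and 6599 in Series 3. It climbed in both series and no Series 3 library overlapped Series 2, with a log2 difference in level of 2.85 ± 0.14 (SE; adjusted p = 1.92e-08) and slopes in log2 units per scaled hour of 1.23 ± 0.18 in Series 2 and 1.50 ± 0.22 in Series 3. *t* (Xetrov72001125), *Brachyury*, the T-box factor of the mesodermal ring, had 595, 1369.8, 3199, 3318 and 6168 reads in Series 2 and 1818, 6138, 13704 and 15139 in Series 3. The ranges overlapped, but each Series 3 library exceeded its paired Series 2 library (1.79 ± 0.15, adjusted p = 1.16e-06; slopes 2.27 ± 0.25 in Series 2 and 2.57 ± 0.34 in Series 3). Without the stage pair as a block the difference in *t* was 1.69 and did not pass (edgeR, adjusted p = 0.0705). The maternal forkhead factor *foxi2* (Xetrov72039397), which acts in animal ectoderm, was the gene of this check that declined. Its 5907, 5098, 4200.0, 3274 and 2837 reads in Series 2 and 58345, 53383, 54513 and 44394 in Series 3 differed by 3.63 ± 0.14 (adjusted p = 6.68e-09), and the decline was called in Series 2 alone; its slopes were -0.72 ± 0.12 in Series 2 and -0.29 ± 0.15 in Series 3 and their difference was not called (adjusted p = 0.321).

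*wnt8a* (Xetrov72039428), the zygotic Wnt ligand of ventrolateral mesoderm, was 2.79 higher on the log2 scale, *mix1* (Xetrov72001388), a homeobox factor of mesendoderm, 2.17, *eomes* (Xetrov72033738), a T-box activator of mesendoderm, 1.39, and *sox17a* (Xetrov72036248), an endodermal HMG-box factor, 1.39. The ventralising ligand *bmp4* (Xetrov72013980) was 2.36 higher, and its target *ventx1.1* (Xetrov72026749), a homeobox repressor of dorsal genes, 1.86. All had adjusted p-values of at most 2.42e-06, were higher in each of 4 pairs, and rose in both series except *bmp4*, whose rise was called in Series 2 alone (slopes 0.68 ± 0.12 in Series 2 and 0.45 ± 0.15 in Series 3). *chrd* (Xetrov72000357), chordin, the secreted BMP antagonist of the organizer, departed from them. It had 851, 1532, 2901, 2634 and 3829.9 reads in Series 2 and 1328, 2334, 2553 and 3464 in Series 3, so that its ranges overlapped and the level difference of 0.24 ± 0.17 did not pass the test (adjusted p = 0.221). *chrd* was higher in Series 3 in 2 of 4 pairs, and its difference was -0.37 with library totals. In whole embryos a higher level can be more cells of a type or more RNA per cell, which cannot be told apart.

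**Figure D2:**
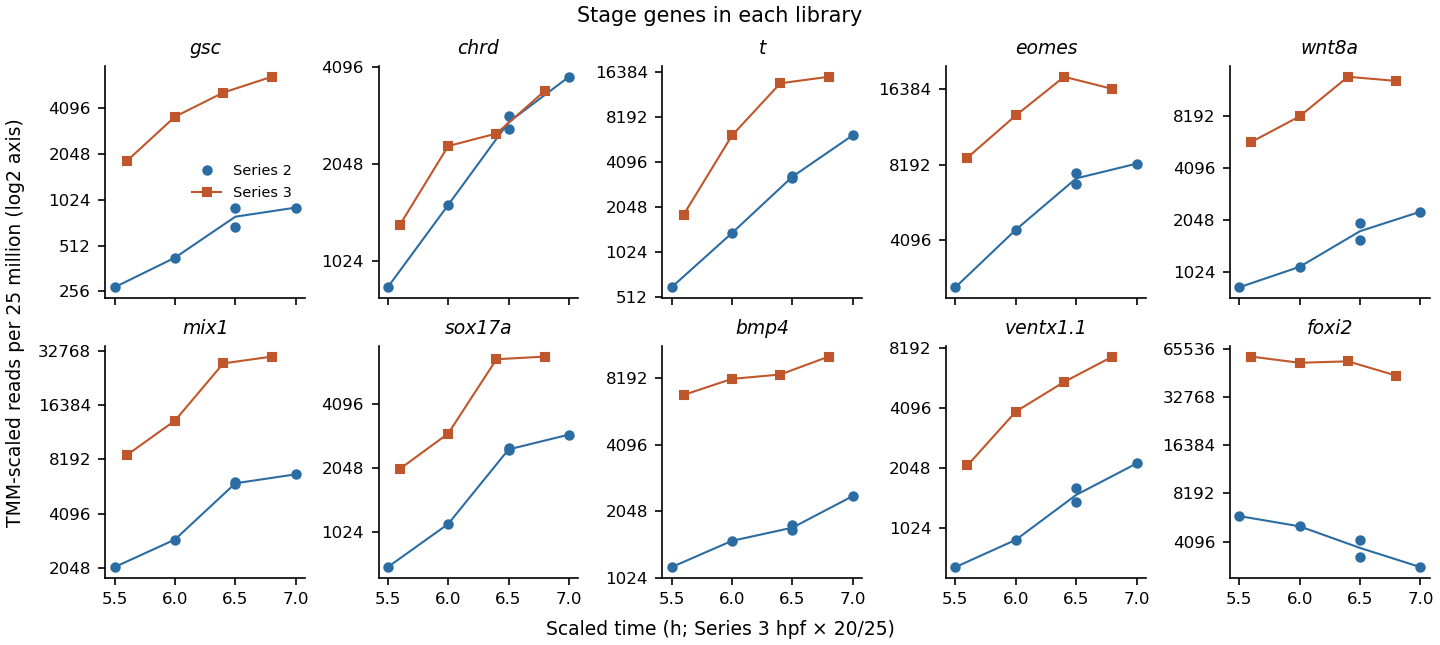
TMM-scaled reads per 25000000 (log2 axis) of 10 stage genes in each library against scaled time in hours, for Series 2 (blue circles, both libraries drawn at 6.5 h, line through their mean) and Series 3 (orange squares). In 9 panels the Series 3 line lies above the Series 2 line, and in the *chrd* panel the lines run together.

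The scaled pairing was checked against all time points of Series 2. Genes were centred within each series, and each Series 3 library was correlated across genes with every Series 2 time point. The highest Pearson correlations placed Series 3 at 7.0, 7.5, 8.0 and 8.5 hpf beside Series 2 at 6.0 (0.557), 6.0 (0.585), 6.5 (0.628) and 7.0 hpf (0.706). By Spearman correlation the points at 7.5 and 8.5 hpf lay nearest to 6.5 hpf of Series 2 (0.420 and 0.540). The best points thus lay within 0.5 h of the pairing. Neighbouring points gave close values, with Pearson correlations of 0.695, 0.706 and 0.683 at 6.5, 7.0 and 7.5 hpf for Series 3 at 8.5 hpf. They carry no error estimate, so the match is not bounded. The points share libraries and depth within a series, so these correlations are descriptions. A change in the pairing matters for steeply changing genes, and counts with other pairings are given beside the developmental lists. They are to be read against all genes in the same setting. With Series 2 points 0.5 h later, 3594 of 12939 genes were higher and 5004 lower. At equal clock times 3370 of 12858 were higher and 4661 lower.

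Among 19 tested genes of the Spemann organizer, the dorsal signalling centre, 13 were higher and none lower in Series 3, against 27.6% higher and 38.4% lower over all genes, with a median difference of 1.64 on the log2 scale against -0.26 over all genes. Library totals left 12 higher and 1 lower, against 15.9% and 54.0% of all genes with that scaling. The secreted Wnt antagonist *dkk1* (Xetrov72026864), which promotes head formation, had 125, 90.1, 148, 134 and 199 TMM-scaled reads in Series 2 and 656, 695, 945 and 1516 in Series 3 (2.75 ± 0.24, adjusted p = 1.25e-06). *sia1* (Xetrov72043417), a homeobox activator that the maternal Wnt signal switches on, had 103, 126, 94.3, 68.7 and 87.3 reads in Series 2 and 619, 356, 779 and 357 in Series 3 (2.34 ± 0.36, adjusted p = 1.21e-04). *admp* (Xetrov72021109), a BMP-like ligand made by the organizer itself, had 1529, 1225, 913, 1118 and 904 reads in Series 2 and 4275, 4923, 6599.6 and 5913 in Series 3 (2.23 ± 0.20, adjusted p = 1.63e-06). For all 3 genes the lowest Series 3 library lay above the highest Series 2 library, which held for 22.1% of all genes tested. The organizer counts depend on the stage match. With Series 2 points 0.5 h later than the scaled pairing 8 of 20 tested were higher and 4 lower, and at equal clock times 7 of 21 were higher and 11 lower. Without the stage pair as a block, 7 were higher and none lower.

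Of 21 tested genes of pan- and ventrolateral mesoderm, 13 were higher and none lower (median 1.15), or 10 and 1 with library totals. Over all genes 27.6% were higher and 38.4% lower, or 15.9% and 54.0% with library totals. *fgf8* (Xetrov72026249), a fibroblast growth factor of the mesodermal ring, had 537, 778, 841, 659.7 and 1017 TMM-scaled reads in Series 2 and 3660.0, 4013, 4955 and 5131 in Series 3 (2.54 ± 0.14, adjusted p = 3.97e-08), without overlap. *wnt11b* (Xetrov72014262), a Wnt ligand present as maternal RNA, had 981, 842, 717, 772 and 856 reads in Series 2 and 2765, 3227, 4645 and 4644 in Series 3 (2.13 ± 0.19, adjusted p = 1.43e-06). *cdx4* (Xetrov72014664), a posterior homeobox gene that rose from near absence, had 19.5, 60.3, 185, 188 and 661 in Series 2 and 149.8, 362, 1031 and 1790.3 in Series 3 (2.30 ± 0.29, adjusted p = 2.70e-05), with overlapping ranges but a higher level in each of 4 pairs. Without the stage pair as a block it was 1.84 and did not pass (edgeR, adjusted p = 0.136). With Series 2 points 0.5 h later 10 of 21 were higher and 4 lower, and at equal clock times 7 of 24 were higher and 11 lower.

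Endoderm genes were higher in 12 and lower in 1 of 22 tested cases (median 0.80), against 27.6% and 38.4% of all genes. Library totals gave 8 and 2, when the median was 0.19. Over all genes the shares were then 15.9% and 54.0%, with a median of -0.87. With Series 2 points 0.5 h later 12 were higher and 4 lower, and at equal clock times 10 of 21 were higher and 6 lower. *mixer* (Xetrov72001353), a homeobox gene of the endoderm, had 903, 1696, 4201, 3849.9 and 6958 reads in Series 2 and 4895, 9529, 25071 and 28542 in Series 3 (2.4 ± 0.13, adjusted p = 2.98e-08), higher in each pair. The ligand *nodal* (Xetrov72026165) had 318, 432, 422, 457 and 352 in Series 2 and 1275, 2216, 2993 and 1564 in Series 3, without overlap (2.32 ± 0.19, adjusted p = 6.33e-07). The exception was its co-receptor gene *tdgf1* (Xetrov72022548), a member of the EGF-CFC family. It had 1599, 1461, 1807, 1320.1 and 1209.9 reads in Series 2 and 76.9, 175, 476 and 343 in Series 3, all lower than in Series 2, as held for 35.8% of genes tested (-2.65 ± 0.37, adjusted p = 6.41e-05). The difference in *tdgf1* was already present in the early embryo, with 989 in Series 2 and 24.2 in Series 3 (normalised reads, mean of 2 early points at 2.5 and 3.0 hpf in Series 2 and 3.0 and 4.0 hpf in Series 3).

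In the ventral BMP group, 14 of 22 tested genes were higher and 3 lower (median 1.13), against 27.6% higher and 38.4% lower over all genes. With library totals 11 were higher and 5 lower, against 15.9% and 54.0%. Moving Series 2 points 0.5 h later left 11 higher and 5 lower. At equal clock times 9 of 24 were higher and 9 lower (median -0.10), against 3370 higher and 4661 lower of 12858 genes (median -0.29). The largest difference in the list belonged to *bmpr2* (Xetrov72004614), a type II BMP receptor, with 1.77, 0.662, 0, 3.86 and 0.693 TMM-scaled reads in Series 2 and 785, 588, 577 and 514 in Series 3. It was close to absent in Series 2 and well counted in Series 3 (8.91 ± 0.46), so that it passed the count filter through Series 3 alone. The same held at the early points, when normalised reads were 1.80 in Series 1, 1.19 in Series 2 and 465 in Series 3. The homeobox repressors *ventx2.1* (Xetrov72026459) and *ventx2.2* (Xetrov72026460), which had no early RNA in any series, were higher by 3.90 ± 0.21 and 4.64 ± 0.21. *ventx2.2* had 409.9, 344, 253, 315 and 544 reads in Series 2 and 7603, 9377, 12052 and 9836 in Series 3. These genes are close copies, and because the authors did not count reads shared between genes and read length differed between series, the unique part of such genes may not be equal in both. *id2* (Xetrov72002394), a helix-loop-helix inhibitor induced by BMP, was lower (2572, 1998, 1501, 2126 and 1273 against 231, 215, 72.1 and 123; -3.59 ± 0.24, adjusted p = 1.82e-07).

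Ectodermal genes were more often higher than lower with the scaled pairing, whereas 27.6% of all genes were higher and 38.4% lower. With library totals 15.9% of all genes were higher and 54.0% lower. Of 20 tested genes of non-neural ectoderm 16 were higher and 3 lower (median 1.34; 13 and 3 with library totals), and of 23 neural and pluripotency genes 14 were higher and 4 lower (median 0.79; 8 and 7 with library totals). Both counts depend on the stage match. Moved 0.5 h later, Series 2 gave 13 and 4 non-neural genes and 7 and 6 neural genes that were higher and lower. At equal clock times these were 7 and 8 of 22, and 6 and 10 of 23 with a median of -0.50. Without the stage pair as a block 7 neural genes were higher and 4 lower. The tight-junction gene *cldn6.1* (Xetrov72006108) was among the most abundant genes of the window, with 21061, 14214, 13540.1, 20477 and 15773 reads in Series 2 and 117521, 146013, 124230.0 and 133312 in Series 3 (2.95 ± 0.15, adjusted p = 2.10e-08). Its neighbour in name *cldn6.2* (Xetrov72006109) differed by 3.31 ± 0.14. The Grainyhead factors of epidermis differed in opposite directions. *grhl2* (Xetrov72033842) had 17.7, 16.6, 22.7, 12.36 and 36 reads in Series 2 and 530.4, 356, 159 and 158 in Series 3 (3.68 ± 0.58, adjusted p = 1.51e-04). *grhl1* (Xetrov72000684) had 2552, 2725, 1978, 2198 and 1506 in Series 2 and 190.3, 164, 317 and 206 in Series 3 (-3.35 ± 0.25, adjusted p = 3.48e-07). Both differences were present early: *grhl2* had 9.65 in Series 1, 12 in Series 2 and 652 in Series 3, and *grhl1* had 2108 in Series 1, 3972 in Series 2 and 38.9 in Series 3 (normalised reads).

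Among neural genes *irx1* (Xetrov72034208), an Iroquois homeobox gene, had 1040.2, 854, 669, 733 and 817 reads in Series 2 and 11389, 11835, 8035 and 6708 in Series 3 (3.45 ± 0.15, adjusted p = 1.03e-08), and *foxd4l1.1* (Xetrov72021397), a forkhead gene of the early neural plate, differed by 1.83 ± 0.16 (adjusted p = 1.05e-06). *oct60* (Xetrov72003431), a maternal POU factor related to mammalian Oct4, fell across Series 2 and was lower in Series 3, at 4623, 4856, 3791, 2683 and 1594 in Series 2 and 101, 33.9, 101 and 6.86 in Series 3 (-5.91 ± 0.31, adjusted p = 2.63e-08). *lin28b* (Xetrov72001700), whose protein blocks let-7 processing, was also lower (-3.99 ± 0.43). Its Series 3 libraries held only 9, 3, 6 and 2 counts. It passed the count filter through Series 2 alone, so its test adds nothing to these counts.

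**Figure D3:**
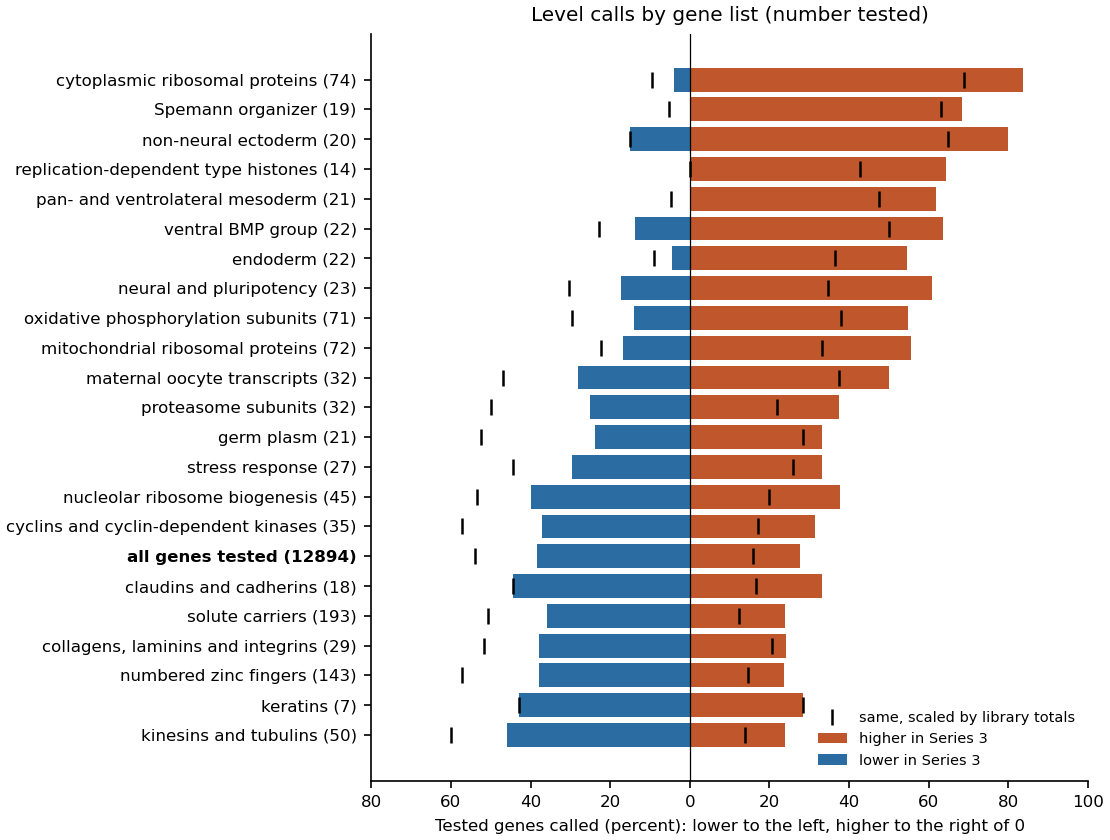
Share of tested genes called higher (orange, right) or lower (blue, left) in Series 3, in percent, for 22 gene lists and for all genes tested (bold), with the number tested in brackets; black ticks give the same shares with library totals. With TMM, 83.8% of cytoplasmic ribosomal protein genes were higher against 27.6% of all genes, and the maternal, germ plasm, stress and proteasome lists turn from more higher to more lower calls with library totals. Of all genes, 15.9% were higher and 54.0% lower with library totals.

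Genes for the translation and respiration machinery were mostly higher with TMM scaling, whereas 27.6% of all genes were higher and 38.4% lower. Under library totals these shares over all genes were 15.9% and 54.0%. Of 74 tested genes for cytoplasmic ribosomal proteins 62 were higher and 3 lower (median 1.74), with 51 and 7 under library totals and 38 and 10 at equal clock times. *rpl38* (Xetrov72016569), of the large subunit, had 85.6, 58.3, 88.3, 66.4 and 83.2 TMM-scaled reads in Series 2 and 1518, 1741, 2654 and 3121 in Series 3 (4.84 ± 0.23, adjusted p = 1.79e-08). *rpl23* (Xetrov72017929) had 273, 252, 465, 362 and 543 in Series 2 and 4146, 5262, 8323 and 8876 in Series 3 (4.16 ± 0.14, adjusted p = 4.74e-09), and *rpl26* (Xetrov72b000278) and *rps21* (Xetrov72017971) were higher by 4.37 ± 0.18 and 3.92 ± 0.23. The summed level of the list was 75465 to 107083 reads in Series 2 and 275038 to 383029 in Series 3. Ribo-Zero libraries of Series 3, in which ribosomal RNA is removed and RNA is kept with or without a polyA tail, gave 249 and 305 normalised reads for *rpl38* at 7.0 and 8.0 hpf, and 1116 and 1089 for *rpl23*. At those times the polyA+ values of both genes were several times higher than the Ribo-Zero values of the same RNA, more than the difference between the TMM-scaled and the normalised scale. What sets polyA+ apart from Ribo-Zero values was not tested.

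Mitochondrial ribosomal protein genes were higher in 40 and lower in 12 of 72 cases (median 0.77), and subunits of oxidative phosphorylation in 39 and 10 of 71 (median 0.67). Library totals gave 24 and 16 and 27 and 21, with medians of 0.16 and 0.08. The shares over all genes were 27.6% higher and 38.4% lower, or 15.9% and 54.0% with library totals. *ndufb1* (Xetrov72015962), an accessory subunit of complex I, had 22.4, 9.27, 28.1, 6.95 and 12.47 reads in Series 2 and 425, 452, 375 and 521 in Series 3 (4.85 ± 0.45, adjusted p = 1.87e-06). *ndufa1* (Xetrov72015334) and *ndufa5* (Xetrov72040241), of the same complex, differed by 3.73 ± 0.19 and 4.12 ± 0.28. In the other direction *uqcrc2* (Xetrov72006925), a core subunit of complex III, had 991, 834, 1132, 966 and 1125 in Series 2. Its Series 3 values were 12.1, 28.3, 43.3 and 13.7, from only 3, 5, 6 and 2 counts. The fitted difference of -5.43 ± 0.37 therefore rests on few counts. This gene passed the count filter through Series 2 alone, so its test adds nothing to the values. *mrpl45* (Xetrov72017628) of the mitochondrial large subunit had 1155, 1096, 1115, 1214 and 1098 reads in Series 2 and counts in only 1 Series 3 library (0, 73.5, 0 and 0), although the Ribo-Zero libraries gave 1157 and 804.

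Histone genes were higher in 9 and lower in none of 14 cases (median 1.92), against 27.6% and 38.4% of all genes. With library totals 6 were higher and none lower, against 15.9% and 54.0%. The list is mainly of replication-dependent genes, whose mature messages end in a stem-loop and not a polyA tail. *hist1h2aa* (Xetrov72031821) had 1256, 605, 391, 541 and 471 reads in Series 2 and 14348, 11660.0, 8669.6 and 7456 in Series 3 (4.0 ± 0.16, adjusted p = 6.68e-09). *hist1h4k* (Xetrov72011313) had 27.2, 19.2, 38.8, 25.5 and 29.8 in Series 2 and 154, 237, 317 and 219.5 in Series 3 (3.06 ± 0.51), against 2201 and 2529 normalised reads in the Ribo-Zero libraries. Histone genes are near-identical copies, so their counts rest on the few reads that map to 1 gene.

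Of 32 tested transcripts known from the oocyte, 16 were higher and 9 lower (median 0.44), against 27.6% and 38.4% of all genes. With library totals 12 were higher and 15 lower, against 15.9% and 54.0%, and the median turned to -0.17. *h1foo* (Xetrov72010725), the oocyte linker histone, had 12694, 11813, 10055, 5141 and 4515 reads in Series 2 and 128440.0, 109846, 89985 and 62016 in Series 3 (3.47 ± 0.13, adjusted p = 4.74e-09). It fell in both series, with slopes of -1.02 ± 0.15 in Series 2 and -0.86 ± 0.19 in Series 3. *cpeb1* (Xetrov72025580), whose protein binds cytoplasmic polyadenylation elements of maternal messages, had 3691, 1508, 456, 607 and 257 in Series 2 and 23138, 17482, 11858 and 8636 in Series 3 (3.92 ± 0.33, adjusted p = 9.16e-07). The mitotic kinase *aurka* (Xetrov72017409) was lower, with 3529, 2540.2, 3067, 2018 and 2431 reads in Series 2 and 227, 124, 613 and 412 in Series 3 (-3.16 ± 0.33, adjusted p = 5.15e-06). Its Ribo-Zero values of 11683 and 10847 normalised reads were well above its polyA+ values at both points.

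Germ plasm genes gave no common direction, with 7 (33.3%) higher and 5 (23.8%) lower of 21 tested (median 0.02), against 27.6% and 38.4% of all genes. All 21 had at least 10 counts in every library, and of the genes so counted 37.6% were higher and 32.3% lower. Library totals gave 6 and 11, against 15.9% and 54.0%. The helicase gene *ddx25* (Xetrov72025882) had 2989, 2172, 1470.4, 2207 and 1122 reads in Series 2 and 11701, 10801, 15175 and 8924 in Series 3 (2.58 ± 0.18, adjusted p = 2.48e-07). The Tudor-domain gene *tdrd6* (Xetrov72007402), of the germ granule, had 1135, 1827, 2213, 1961 and 2072 in Series 2 and 142, 73.5, 289 and 137 in Series 3 (-3.52 ± 0.29, adjusted p = 7.25e-07). *tdrd9* (Xetrov72012669) was lower by a similar amount (-3.28 ± 0.25), and *tdrd5* (Xetrov72009064) by less (-2.01 ± 0.22).

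Stress-response genes were higher in 9 (33.3%) and lower in 8 (29.6%) of 27 cases (median -0.28), against 27.6% and 38.4% of all genes. Library totals gave 7 and 12, against 15.9% and 54.0%. *atf4* (Xetrov72010301), a transcription factor induced under amino acid and endoplasmic reticulum stress, had 673, 854, 1676, 1003 and 2057 TMM-scaled reads in Series 2 and 11725, 14893, 18774 and 20119 in Series 3 (3.83 ± 0.16, adjusted p = 9.68e-09). *gadd45a* (Xetrov72011430), a growth arrest gene, had 571, 598, 988, 1052 and 1414 in Series 2 and 4478, 5805, 8396 and 9137 in Series 3 (2.99 ± 0.14), and *ddit3* (Xetrov72031541), which encodes the factor CHOP, differed by 2.52 ± 0.24 (adjusted p = 2.30e-06). All 4 Series 3 libraries lay above Series 2 for these 3 genes, and *atf4* and *gadd45a* rose over the window in both series. These 3 are among the higher members. In the list 8 of 27 genes lay wholly above Series 2 and 7 wholly below, against 22.1% and 35.8% of all genes. Lists for other tissues were nearly empty: 3 of 18 blood, immune and MHC genes were counted highly enough to be tested, and 1 of 12 genes of ovary follicle and oviduct. *ptprc* (Xetrov72008341), a leukocyte phosphatase, was lower (501, 656, 594, 639.6 and 694 against 64.8, 96.1, 93.8 and 48; -3.03 ± 0.32, adjusted p = 5.53e-06).

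In other families counts are to be read against 27.6% higher and 38.4% lower over all genes, to which zinc fingers (23.8% and 37.8%) and solute carriers (23.8% and 35.8%) lay close. Among genes with at least 10 counts in all 9 libraries these shares were 37.6% and 32.3%. Of the proteasome genes 31 of 32 had 10 counts in every Series 3 library, and of the nucleolar genes 44 of 45. The proteasome shares of 37.5% higher and 25% lower are thus near the higher share of such genes. Numbered zinc finger genes were higher in 34 and lower in 54 of 143 cases, solute carriers in 46 and 69 of 193, kinesins and tubulins in 12 and 23 of 50, nucleolar ribosome biogenesis genes in 17 and 18 of 45, proteasome subunits in 12 and 8 of 32, and cyclins and cyclin-dependent kinases in 11 and 13 of 35. Of 18 claudins and cadherins 6 were higher and 8 lower, of 29 collagens, laminins and integrins 7 and 11, and of 7 keratins 2 and 3. Only 9 of the 18 claudins and cadherins had at least 10 counts in every Series 3 library. With at least 10 counts in all 8 columns, 7 of 9 were higher and 2 lower. In that setting 3161 of 8777 genes were higher and 3218 lower. Single members differed widely. The γ-tubulin gene *tubg1* (Xetrov72042872) was at 1193, 919, 528, 965 and 632 reads in Series 2 and 4.05, 17, 57.7 and 13.7 in Series 3 (-5.42 ± 0.51). Each Series 3 library held under 10 counts of *tubg1*, which passed the count filter through Series 2 alone, so its test adds nothing to these values. The mitochondrial ADP/ATP carrier gene *slc25a4* (Xetrov72021768) was at 25.4, 15.9, 14, 23.9 and 20.1 in Series 2 and 964, 1204, 1024 and 823 in Series 3 (5.63 ± 0.30, adjusted p = 3.31e-08). *noc3l* (Xetrov72027853), a nucleolar assembly factor, had 3467, 3796, 4100.3, 3955 and 4176 in Series 2 and 117, 28.3, 115 and 137 in Series 3 (-5.31 ± 0.27), whereas its Ribo-Zero values were 4422 and 3949.

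The largest differences were close to presence against absence. Of the 12 largest higher calls with a gene symbol and at least 100 normalised reads, 10 had early RNA of at least 147 normalised reads on average in Series 3, and *cplx2* (Xetrov72b000187) and *six3* (Xetrov72001585) had none. *kcnk1* (Xetrov72014384), a potassium channel gene, had 0, 1.99, 0, 0 and 1.39 TMM-scaled reads in Series 2 and 1571, 1413, 1313 and 1495 in Series 3. It had 5 counts in all of Series 2, and the ratio of summed counts per depth was 2179 (exact 95% counting interval 931 to 6726). The DNA glycosylase gene *neil3* (Xetrov72019966) had 2.95, 0, 8.69, 0 and 0.693 in Series 2 and 1304, 1605, 1089 and 1077 in Series 3 (9.23 ± 0.50), with early values of 0 in Series 1, 2.38 in Series 2 and 2670.2 in Series 3. The genes *kcnk1*, *neil3* and *cplx2* reached the count filter through Series 3 alone, so their tests add nothing to these values. The size fitted for *neil3* depends on how 0 is treated. Between paired libraries, with a constant added to each value, *neil3* differed by 6.26 to 7.34 on the log2 scale. *opn5.2* (Xetrov72036601), an opsin gene, had 47.3, 48.4, 37.4, 43.3 and 38.8 in Series 2 and 5469.8, 4900.3, 4054 and 4534 in Series 3 (6.76 ± 0.17, adjusted p = 4.11e-10).

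The other 7 genes of this group were *stk4* (Xetrov72017281), a Hippo pathway kinase (8.09), *p2ry10* (Xetrov72014424), a G protein-coupled receptor (7.48), *ngf* (Xetrov72022088), nerve growth factor (6.24), *pde1c* (Xetrov72033798), a phosphodiesterase (6.21), *atp11a* (Xetrov72028961), a phospholipid flippase (5.83), *camk4* (Xetrov72021073), a calcium-dependent kinase (5.83), and *bmpr2*. Of these, *stk4*, *p2ry10*, *ngf* and *bmpr2* reached the count filter through Series 3 alone. Counts of *camk4* and *atp11a* in Series 2 were also few. The sizes given for these genes depend on how counts near 0 are treated. Between paired libraries, with a constant added to each value, *stk4* differed by 4.09 to 5.15 on the log2 scale. The ranges were 4.33 to 5.62 for *p2ry10*, 3.13 to 4.69 for *ngf*, 4.04 to 4.89 for *camk4* and 2.58 to 4.15 for *atp11a*. Early RNA of *p2ry10* was also seen in Series 1, with 176 in Series 1, 0 in Series 2 and 307 in Series 3. For *opn5.2* early values were 63.7 in Series 1, 28.3 in Series 2 and 3641 in Series 3, and for the other 8 with early RNA Series 1 had at most 34.6.

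In the other direction, 491 tested genes had no count in any of 4 Series 3 libraries, against 3 with none in Series 2, which was sequenced more deeply. Of the 491, 96 had at least 100 normalised reads on average in Series 2. *araf* (Xetrov72042953), a kinase of the RAF family, had 601, 990.2, 1121, 976 and 779 TMM-scaled reads in Series 2 and 0 in Series 3, which is at least 47.9-fold lower against the mean floor of 3 counts per library. *sgpp1* (Xetrov72014901), a sphingosine phosphatase gene, was at least 27.1-fold lower (308, 595, 571, 649.6 and 423 reads in Series 2), and *med27* (Xetrov72015120), a Mediator subunit, at least 25.8-fold (416, 472, 483, 469.6 and 475). The other 9 largest were *pla2g4a* (Xetrov72012000), a phospholipase A2, *gdap2* (Xetrov72030213), *mtpn* (Xetrov72040368), myotrophin, *naa60* (Xetrov72005991), an N-terminal acetyltransferase, *ilk* (Xetrov72037064), integrin-linked kinase, *dusp27* (Xetrov72028996), of the dual-specificity phosphatase family, *preb* (Xetrov72012326), of vesicle export from the endoplasmic reticulum, *sgip1* (Xetrov72008792), of endocytosis, and *tax1bp3* (Xetrov72032104), a PDZ-domain protein gene, at least 16.6 to 25.4-fold lower. These genes reached the count filter through Series 2 alone, so their tests add nothing to the bounds.

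Many of these RNAs were counted in the Series 3 embryos when polyA+ selection was not used. Ribo-Zero libraries, made from the same RNA at 7.0 and 8.0 hpf, held at least 100 normalised reads at both points for 50 of the 96 genes and under 20 at both points for 12. *araf* had 394 and 259 normalised reads there, *sgpp1* 519 and 564, *med27* 275 and 285 and *ilk* 566 and 512. *dusp27* was the lowest of the named 12, with 5.19 and 19.5. The median of the 96 genes was 164 TMM-scaled reads in Series 2 and 109 and 129.7 normalised reads in the Ribo-Zero libraries.

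Large differences were also seen in genes with counts in every library. A group of 8 genes was chosen after the values were seen, as those with the largest lower calls among genes with at least 10 counts in every Series 3 library. *wee2* (Xetrov72039425), an oocyte kinase that holds back entry into M phase, had 8049, 9076, 6730.2, 5822 and 4033 reads in Series 2 and 146, 84.8, 166 and 75.5 in Series 3 (-5.87 ± 0.22, adjusted p = 5.31e-09). *pum2* (Xetrov72004428), a translational repressor, had 4038, 7968, 11565, 12164 and 11397 in Series 2 and 149.8, 164, 123 and 322 in Series 3 (-5.46 ± 0.24, adjusted p = 1.26e-08). *pbrm1* (Xetrov72042898), a chromatin remodelling subunit, had 4318, 6758, 9355, 7323 and 7496 in Series 2 and 48.6, 96.1, 238 and 178 in Series 3 (-5.71 ± 0.22). For these 3 genes every Series 3 value was below every Series 2 value by a wide margin, whereas Ribo-Zero values were 6535 and 6698, 8642 and 9343 and 8901 and 9459.6 normalised reads. *mtf2* (Xetrov72009160), a Polycomb-associated gene, *tpp2* (Xetrov72028911), a peptidase, *ubr4* (Xetrov72024675), a ubiquitin ligase, *sec23ip* (Xetrov72028135), of vesicle transport, and *picalm.2* (Xetrov72029441), a clathrin adaptor, completed the group with differences of -4.84 to -5.23.

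Genes were next split by whether RNA was counted at the early points (2.5 and 3.0 hpf in Series 1 and 2, 3.0 and 4.0 hpf in Series 3), a division added after other results were seen. A class of 650 tested genes had under 10 normalised reads at both early points of all 3 series. Of these, 245 (37.7%) were higher and 67 (10.3%) lower in Series 3 (median 0.78), against 30.9% and 37.2% of 9727 genes with at least 10 normalised reads at each early point of all series (median -0.11). With library totals the shares were 27.7% and 18.2% without early RNA (median 0.17) and 16.8% and 55.1% with it (median -0.72). These shares were not counted with other pairings, which change the counts of the developmental lists, and the classes were not matched in level. The forebrain homeobox gene *six3* had 47.3, 24.5, 25.4, 16.2 and 22.9 reads in Series 2 and 1976, 2125, 1443 and 899 in Series 3 (5.78 ± 0.28, adjusted p = 1.71e-08). *cplx2*, a gene of the synaptic release machinery, had 1.18, 0, 0.669, 0 and 0.693 in Series 2 and 777, 627, 858 and 1386 in Series 3. Its 4 counts in all of Series 2 give a ratio of summed counts per depth of 1638 (exact 95% counting interval 636 to 6029). Both were present in Series 3 Ribo-Zero libraries, with 161 and 201 and 519 and 1063 normalised reads.

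Some genes without early RNA were lower. *akap12* (Xetrov72000049), a kinase anchoring protein gene, had 955, 2371, 6866, 5174 and 8974 reads in Series 2 and 462, 848, 952 and 1173 in Series 3 (-2.05 ± 0.28, adjusted p = 4.29e-05). It rose in both series, and the Ribo-Zero values were 4796 and 12144 normalised reads. *mn1* (Xetrov72018957), a transcriptional regulator gene, had 152, 264, 432, 501 and 752 in Series 2 and 72.9, 11.3, 0 and 0 in Series 3 (-4.0 ± 0.88, adjusted p = 0.00175), with 202 and 292 in the Ribo-Zero libraries. *lpar2* (Xetrov72042453), a lysophosphatidic acid receptor, had 81.5, 236, 625, 744 and 1525 in Series 2 and 24.3, 67.8, 86.6 and 185 in Series 3 (-2.49 ± 0.35), again with a rise in both series. With Series 2 points 0.5 h earlier than the scaled pairing, *akap12* (-0.43, adjusted p = 0.572), *lpar2* (-0.77, adjusted p = 0.218) and *mn1* (-3.15, adjusted p = 0.0607) did not pass edgeR's test.

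Most 2-fold differences in genes with early RNA were already seen at the early points, which hold mainly maternal RNA but for some genes also the first zygotic transcripts. Over 10231 genes with at least 100 normalised reads early in any series, the gastrula difference (mean of 4 pairs) correlated across genes with the early difference between Series 3 (3.0 and 4.0 hpf) and Series 2 (2.5 and 3.0 hpf) with r = 0.901 (Spearman 0.894). These early libraries are not part of the gastrula comparison but share its female, colony, kit and sequencer. The early difference between Series 1 and Series 2, which share colony and kit but not the female, correlated with the same gastrula difference with r = 0.067 (Spearman 0.097). Of 3057 genes that were at least 2-fold lower at gastrula and had at least 100 normalised reads early in Series 2 or 3, 2711 (88.7%) were already 2-fold or more lower. Among 1793 such genes that were higher at gastrula, 1145 (63.9%) were already 2-fold or more higher. These shares set early values scaled by library totals beside gastrula values scaled by TMM. At gastrula the median gene lay 0.609 lower on the log2 scale with library totals. The unlike scales may thus raise the share already lower and reduce the share already higher. The lower genes include some that passed the count filter through Series 2 alone.

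**Figure D4:**
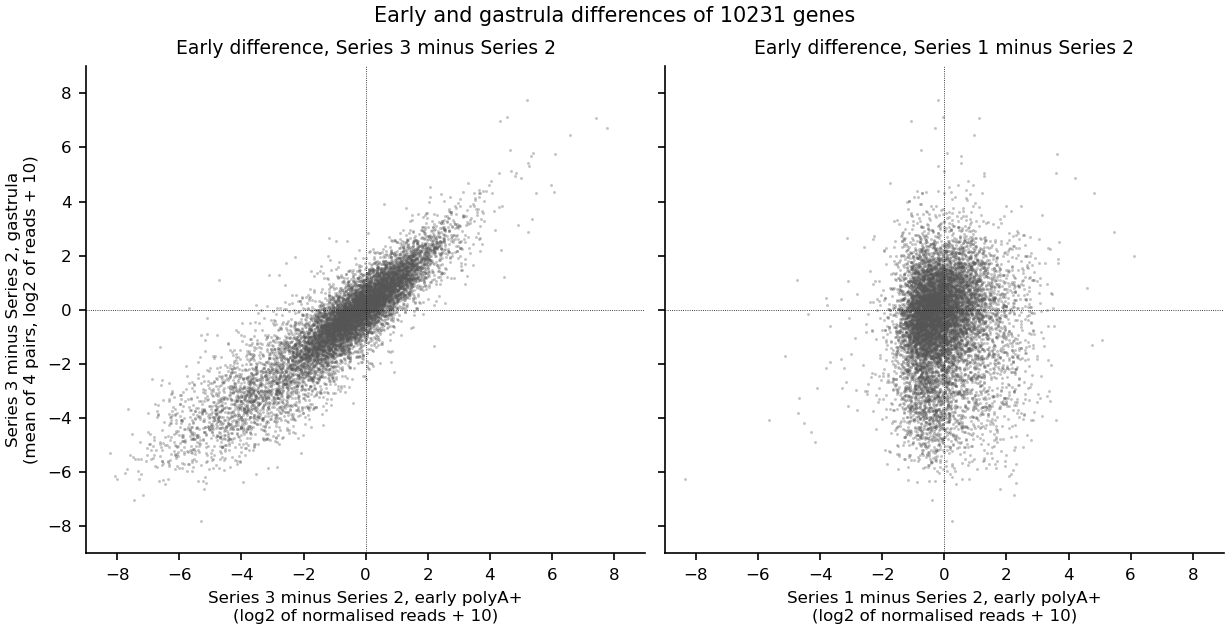
Gastrula difference between Series 3 and Series 2 (y axis, mean of 4 pairs, log2 of TMM-scaled reads plus 10) of 10231 genes against the difference at the early points (x axis, log2 of normalised reads plus 10) between Series 3 and Series 2 (left) or Series 1 and Series 2 (right). Points follow a rising band on the left (r = 0.901) and an upright cloud on the right (r = 0.067); points are genes, which are not independent replicates.

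Change within the window was compared separately, since a constant factor between the series leaves a slope as it is. In edgeR's test of a straight line in scaled time, 705 genes (5.47%) rose and 1090 (8.45%) fell in Series 2, and 818 (6.34%) rose and 552 (4.28%) fell in Series 3. Over all tested genes the slopes had the same sign in 64.8%, and in 67.9% of those with at least 10 counts in all 9 libraries. The first share includes the 491 genes without a count in Series 3, whose slope there carries no information. Of the 705, 653 (92.6%) had a positive slope in Series 3 and 396 were called there (56.2% of the Series 2 calls and 48.4% of the Series 3 calls), while 1 was called in the opposite direction. Of the 1090, 988 (90.6%) had a negative slope, 312 were called (28.6% and 56.5%) and 3 were called in the opposite direction. Median slopes of the rising genes were 1.40 in Series 2 and 1.28 in Series 3 log2 units per hour, and those of the falling genes -0.90 and -0.59. The first of each pair of medians belongs to the series in which the genes were chosen. Across all tested genes the slopes correlated at r = 0.270, and at r = 0.646 over the 8765 genes with at least 10 counts in all 9 libraries. The Series 3 count fell most without its first pair, when 48 of 10598 genes tested rose and 2 fell. Leaving out another pair gave 438 to 697 rising and 119 to 384 falling genes. In edgeR's test 1915 genes had an unadjusted p under 0.05 without the first pair, and 2434 to 2780 without another.

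The slopes were called different between series for 32 genes in the positive (0.248%) and 8 in the negative direction (0.062%), with 1817 genes (14.1%) at an unadjusted p under 0.05. These calls are fragile. None remained when any 1 of 4 stage pairs was left out, with 1041 to 1518 genes at an unadjusted p under 0.05, or with limma on log2 values (1558 genes). The test fits few libraries. In simulated data of this design, with 200 of 12894 genes changed, it recovered 124 of 200 slope differences of 2 log2 units per hour. It also called 13 unchanged genes in that run. It recovered 2 of 200 of 1 unit, so smaller differences were largely out of reach there. Recovery depends on the share of genes that change, which is not known for the real data, so these rates are a rough guide.

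**Figure D5:**
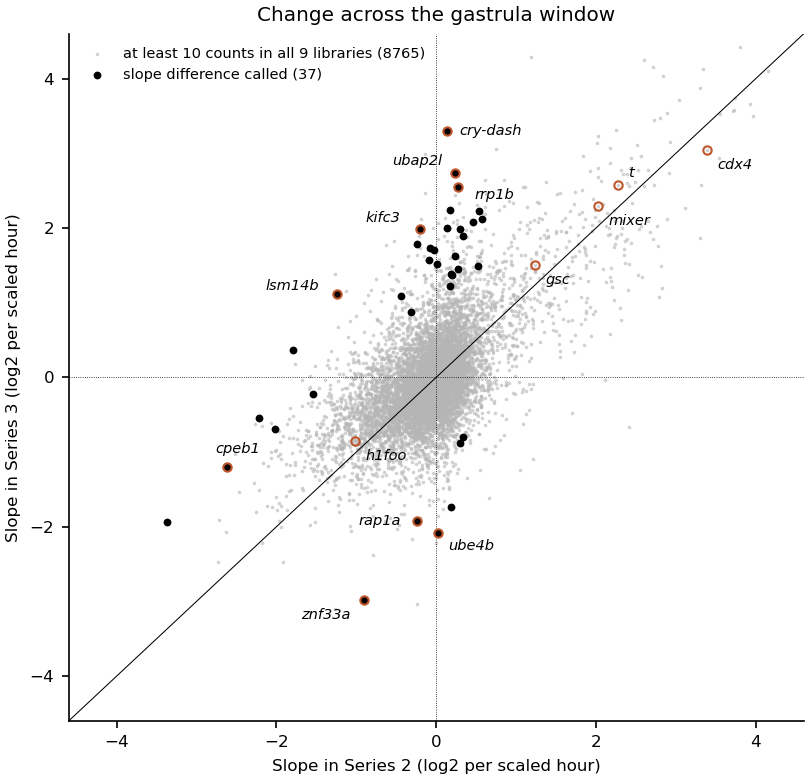
Slope in Series 2 (x axis) and Series 3 (y axis), in log2 units per scaled hour, of the 8765 genes with at least 10 counts in all 9 libraries (grey), with called slope differences in black and selected genes circled in orange; the diagonal marks equal slopes. Called genes lie mostly above the diagonal near a Series 2 slope of 0, while *t*, *gsc*, *mixer* and *cdx4* lie close to the diagonal.

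The 6 named genes with the largest positive slope differences started low in Series 3. *ubap2l* (Xetrov72003738), an RNA-binding ubiquitin-associated protein gene, had 2169.6, 2213, 2741, 2564 and 2666 TMM-scaled reads in Series 2 and 304, 955, 1818 and 3279 in Series 3. It was level in Series 2 and climbed to a similar value in Series 3 (slopes 0.23 ± 0.16 in Series 2 and 2.73 ± 0.24 in Series 3; difference 2.50 ± 0.28, adjusted p = 0.0146). *cry-dash* (Xetrov72035042), of the cryptochrome family, had 696, 785, 953, 636 and 802 in Series 2 and 44.5, 96.1, 462 and 617 in Series 3 (difference 3.16 ± 0.52, adjusted p = 0.0336). *map1lc3a* (Xetrov72017978), an autophagosome gene, had 359, 293, 192, 349 and 240.5 in Series 2 and 20.2, 39.6, 195 and 288 in Series 3 (difference 3.70 ± 0.64, adjusted p = 0.0355). *kifc3* (Xetrov72008632), a kinesin (2.19 ± 0.30), *lsm14b* (Xetrov72017477), an RNA granule protein gene (2.36 ± 0.44), and *rrp1b* (Xetrov72012328), a nucleolar protein gene (2.28 ± 0.39), followed. All Series 3 libraries lay below Series 2 for *rrp1b*, *lsm14b* and *cry-dash*, as held for 35.8% of genes tested. In the Ribo-Zero libraries *ubap2l* had 2719.7 and 3294 normalised reads and *map1lc3a* 348 and 324 at 7.0 and 8.0 hpf, which are level beside the polyA+ rise. *cry-dash* rose there as well, from 26 to 130. The other values were 6950 and 6853 for *lsm14b*, 2299 and 2412 for *kifc3* and 1547 and 1764 for *rrp1b*.

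The 6 with the largest negative slope differences lost reads in Series 3. *znf33a* (Xetrov72036016), a zinc finger gene with at most 15.9 normalised reads early in any series, had 1410.0, 995, 760.3, 756 and 543 reads in Series 2 and 4279, 1689.9, 707 and 377 in Series 3. It fell in both series and faster in Series 3 (slopes -0.90 ± 0.16 in Series 2 and -2.98 ± 0.22 in Series 3; difference -2.08 ± 0.27, adjusted p = 0.0178). *rap1a* (Xetrov72022570), a small GTPase gene, had 2952, 2859, 2310.3, 2192 and 2407 in Series 2 and 1939, 1249, 699.6 and 391 in Series 3 (difference -1.68 ± 0.25, adjusted p = 0.0222), and *ube4b* (Xetrov72024904), a ubiquitin ligase gene, had 4235, 4639, 4138, 4739.7 and 4432 in Series 2 and 502, 305, 123 and 103 in Series 3 (difference -2.11 ± 0.31, adjusted p = 0.0222). Ribo-Zero values of *ube4b* were 4401 and 3832 normalised reads, far above its polyA+ values. *uhrf1bp1l* (Xetrov72037926) differed by -1.91 ± 0.35. The fitted slopes of *mn1* and *tmem19* (Xetrov72039532) rest on 2 Series 3 libraries without a count and depend on how 0 is treated, so they are no measure of size; *tmem19* had 279, 45.2, 0 and 0 reads in Series 3. The oocyte gene *cpeb1*, again, fell in both series but less steeply in Series 3 (slopes -2.61 ± 0.13 in Series 2 and -1.21 ± 0.15 in Series 3; difference 1.41 ± 0.19, adjusted p = 0.0221).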

How the data were processed

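The authors aligned reads with Bowtie 0.12.7 to *X. tropicalis* gene models plus curated sequences, left out reads shared between genes, and deposited raw counts per gene for each library; the Series 1 and 2 counts stand in one table and the Series 3 counts in another. The deposited normalised signal is the count divided by the library total without ribosomal entries, times 25000000, which the raw counts returned to within a relative difference of 5.81e-07. Entries that name no gene (3 and 7 in the tables) stayed out of library sizes and tests. The tables held 21750 and 20193 genes, of which 19372 were in both. Of 13370 gene symbols, 12611 were in a RefSeq gene table of another assembly, which served for names only; gene positions and transcript lengths were not analysed here.

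Counts of the 9 libraries were used as deposited, with the 6.5 hpf libraries of Series 2 averaged and rounded, giving 8 columns. Genes that reached 10 counts in 4 or more columns were tested with edgeR 4.0.16 in R 4.3.3 (TMM scaling, quasi-likelihood test, Benjamini-Hochberg adjusted p under 0.05) for the series, with the stage pair as a block. Time points were treated as pairs because deviations from the series means correlated within all 4 pairs (0.117 to 0.468). Other pairings gave -0.483 to 0.362. Some neighbouring points correlated more than a pair did, so the check does not place a library more closely than 1 time step. Slopes were fitted as a straight line in scaled time within each series. Early values are means of 2.5 and 3.0 hpf in Series 1 and 2 and of 3.0 and 4.0 hpf in Series 3. Early and Ribo-Zero values are deposited normalised reads, and were not tested.

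The members, gene lists and tests were chosen with earlier results of these data known. Named genes have a symbol and, apart from the 10 stage genes, at least 100 normalised reads in the higher series. They are the 12 largest level differences in each direction, called at 2-fold or more with 1 sign in all 4 pairs, the 6 largest called slope differences in each direction, whatever their level difference, and at most 4 members of each list with the largest level differences. The 8 lower genes with counts in every Series 3 library, genes without early RNA and *cpeb1* as a slope difference were added after their values were seen. On simulated counts for 12894 genes, the level test recovered 101 of 200 differences of 1 log2 unit and 166 of 200 of 2 units. It also called 0 unchanged genes in the run with 1 unit and 8 in that with 2 units. No other gene was changed in these simulations, unlike in the real data, so the rates are a rough guide. Alternatives used DESeq2 1.42.0, limma 3.58.1, other filters, scalings and pairings, and left out each pair or each 6.5 hpf library. Pair, replicate and early differences were taken on log2 of the value plus a pseudocount of 10. Depth limits are set by 3 counts in each library.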

Additional observations from a re-analysis of the deposited data

Results flagged for a closer look

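Of 212 groups of libraries examined (101 named genes and 5 library measures in each series), 12 held 1 library far from the rest by Dixon's criterion at the 95% level, where chance gives about 1 in 20. In Series 2 the library at 5.5 hpf was apart for *hist1h2aa* (1256 TMM-scaled reads), *ndufa5* (122) and *stk4* (2.95), all high, and for *med27* (416), low. The library at 7.0 hpf was high for *atp11a* (14.6), *ddit3* (268) and *cdx4* (661), and the first at 6.5 hpf for *preb* (395). In Series 3 the library at 7.0 hpf was high for *mn1* (72.9) and *tmem19* (279), that at 7.5 hpf for *mrpl45* (73.5) and that at 8.5 hpf for *sec23ip* (123).

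The slopes of 32 genes differed between the series in the positive and of 8 in the negative direction by the test of the difference itself. The named ones were *map1lc3a* (3.70 log2 units per scaled hour, Series 3 minus Series 2), *cry-dash* (3.16), *ubap2l* (2.50), *lsm14b* (2.36), *rrp1b* (2.28), *kifc3* (2.19) and *cpeb1* (1.41), and in the other direction *mn1* (-8.93), *tmem19* (-6.23), *ube4b* (-2.11), *znf33a* (-2.08), *uhrf1bp1l* (-1.91) and *rap1a* (-1.68). None of these calls held without any 1 stage pair.

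In libraries outside the comparison, 50 genes without a count in the polyA+ libraries of Series 3 had at least 100 normalised reads in both Ribo-Zero libraries of the same series.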

How the results depend on the processing

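The level result kept its counts within 1.5 times in both directions with DESeq2's size factors or test, the sum or separate use of the 6.5 hpf libraries, no filter, other pairings, and with the replicate block left out (3398 higher and 4839 lower), and no gene named changed direction under these except with other pairings. Library totals gave 2049 higher calls, and limma on deposited values gave 2190 (plus 10) or 2071 (plus 1), since both keep the depth scaling by totals. With at least 10 counts in all 8 columns, 3218 genes were lower among fewer tested. Leaving out 1 stage pair gave 3019 to 3229 higher and 3308 to 3561 lower genes, among 10598 to 10797 tested. With Series 2 points 0.5 h later *chrd* turned to -0.36, and at equal clock times *chrd* turned to -1.21, *cdx4* to -1.86, *sox17a* to -0.084 and *t* to -0.56. At equal clock times *mixer* (0.44, adjusted p = 0.238) and *grhl2* (1.60, adjusted p = 0.113) no longer passed edgeR's test. Leaving out a pair ended no level call the text gives among genes still tested. Genes with 10 counts in 1 series alone cannot pass the filter of 4 columns in such a fit. They were not tested there, among them *araf*, *kcnk1* and *bmpr2*. For slopes in Series 2, limma gave 466 rising genes, and points 0.5 h later gave 1184. Without 1 pair, 336 to 614 genes rose and 292 to 889 fell in Series 2, and 48 to 697 rose and 2 to 384 fell in Series 3. Slope differences numbered 13 positive and 4 negative with library totals, 24 and 5 with DESeq2's size factors, 87 and 15 with at least 10 counts in all 8 columns, and 74 and 22 with Series 2 points 0.5 h later. They numbered 0 and 0 with limma (1558 genes at an unadjusted p under 0.05) and 0 and 0 without any 1 pair (1041 to 1518 genes). The cause of these changes was not tested, except that a fit without a pair has fewer libraries. Depth limits Series 3, where 3 counts stand for 17.8 TMM-scaled reads on average.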
